A study of Homo sapiens with 8 samples.

Results

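Pluripotent stem cells are held in their state by a small set of transcription factors, and 6 genes that stand for it were followed here through long-read libraries: POU5F1, NANOG, SOX2, DPPA4, ZFP42 and PRDM14. They were chosen by name in the combined transcript assembly, which lists 15 transcripts with reads for them among 96614 transcripts of 29937 genes and loci. The 8 libraries hold polyadenylated RNA of H1, a widely used human embryonic stem line, read on a PacBio Sequel II. There were 4 groups of 2 repeats each. Undifferentiated cells (hPSC) were kept on Matrigel in mTeSR1 medium. Ectoderm cells were grown in medium with serum replacement (KOSR) and the inhibitors A83-01 (activin and TGF-beta receptors), PNU-74654 (beta-catenin) and Dorsomorphin (BMP receptors), each at 2 µM. Endoderm cells were grown in RPMI with serum, WNT3A and Activin A, the latter at 100 ng/ml. Mesoderm cells were grown in DMEM/F12 with serum, VEGF and BMP4 at 100 ng/ml and bFGF at 10 ng/ml, with 100 ng/ml Activin A during the first 24 hours and none after. The labels give collection after 5 days in the sentence that follows the ectoderm recipe, and name 1 parent line. They do not say whether repeats are separate cultures, so p-values measure the spread between these libraries, which may be technical.

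POU5F1 (OCT4) is a POU-domain factor that binds DNA together with SOX2, an HMG-box factor. NANOG is a homeodomain factor, and the trio bind the regulatory regions of many genes, their own among them. SOX2 is known to stay on when pluripotent cells become neural ectoderm, while NANOG and POU5F1 are known to persist for a time as cells move toward endoderm. DPPA4 is a nuclear SAP-domain protein, ZFP42 (REX1) is a zinc finger protein widely used as a marker of the pluripotent state, and PRDM14 is a zinc finger protein of the PR-domain family that restrains differentiation genes.

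Each library held between 503840 and 1180888 counts, where 1 count is 1 read assigned to a transcript. Levels are given as CPM, the count scaled to a library of 1e6 reads, on which scale 1 read was worth 0.847 to 1.98 CPM. The cultures were checked with lists of marker genes. Ectoderm markers with reads in both ectoderm libraries numbered 7 of 8, with SOX1 at 0, and all 8 endoderm markers had reads in both endoderm libraries. In endoderm SOX17 had 150 and 16 counts, FOXA2 3 and 4, CER1 974 and 1181, and GATA4 72 and 64. GATA6 had 21 and 28 there, EOMES 70 and 56, CXCR4 40 and 50, and HHEX 12 and 8. Of 9 mesoderm markers, 5 had reads in both mesoderm libraries, and 7 in both endoderm libraries. In mesoderm the 5 were HAND1 (263 and 274 counts), BMP4 (165 and 125), TBX3 (132 and 180), TBX6 (6 and 3) and KDR (1 and 1). In hPSC TBX6 had 3 and 6 counts and KDR 57 and 44. Among the defining early genes TBXT had 1 and 0 counts in mesoderm, and MIXL1, MESP1 and FOXF1 had none. A list of 12 amnion and trophoblast genes summed to 6711 and 7363 CPM in mesoderm, with 10 of 12 present in both libraries and CGB5 and GCM1 at 0. The same list summed to between 14.5 and 80.3 CPM elsewhere, so every mesoderm value below belongs to cultures with that makeup, whose part in the results was not tested. In bulk RNA, fewer cells of a type and less RNA per cell cannot be told apart.

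The hPSC libraries differed from each other at SOX2, which bears on every comparison of that gene. Repeat 1 held 71 SOX2 counts and repeat 2 held 5, a log2 ratio of 3.81 after scaling to library size (0.5 added to each count). Among 4007 genes with at least 50 counts over both hPSC libraries, 23 (0.574%) were at least as far from equality. The log2 ratio between repeats was 0.19 for POU5F1, -0.59 for NANOG, -0.06 for DPPA4, -0.19 for ZFP42 and 0.19 for PRDM14. Of the further network genes described later, SOX3 had 46 and 0 counts, TRIM71 83 and 18, and EPCAM 82 and 25 in the same libraries. In GC content the SOX2 transcript was at 50.7%. Of 3890 of these genes with a GC value, the 778 between 50.2% and 54.9% had a median log2 ratio of -0.25, and the 778 richest in GC had 0.29. The part of GC content and of library quality in the SOX2 difference was not tested.

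**Figure D1:**
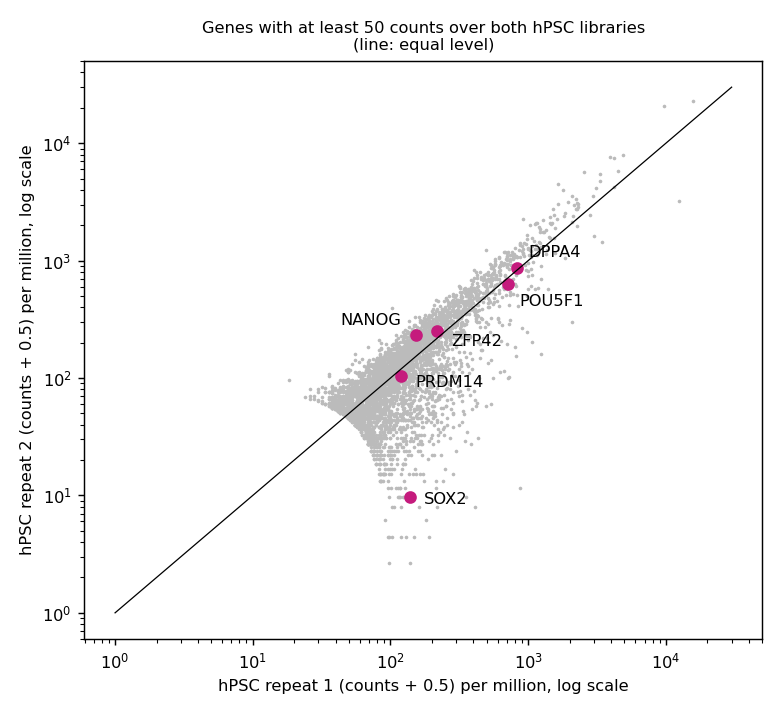
Level of each gene with at least 50 counts over both hPSC libraries in repeat 1 (x axis) and repeat 2 (y axis), in counts plus 0.5, scaled to a library of 1e6, on log scales; the line marks equal levels. POU5F1, NANOG, DPPA4, ZFP42 and PRDM14 lie near the line, while SOX2 lies far below it with 71 counts against 5.

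POU5F1 was carried by 1 transcript, ENST00000259915.13, in all 4 groups. It spans chr6:31164337-31170682 on the minus strand of GRCh38, with 5 exons and 1409 bases, and was assembled separately in each of the 4 groups. GENCODE 29 lists 9 transcripts of the gene, and no other of them is in the combined table. All 1080 coding bases (without the stop codon) are in it. Every POU5F1 count was assigned to this transcript, and whether each read crosses a given junction was not checked. Its first exon joins the second as follows (chr6:31166018-31170245 across the intron, minus strand, GENCODE 29), with the exon 2 bases in capitals.
POU5F1 exon 1 to exon 2: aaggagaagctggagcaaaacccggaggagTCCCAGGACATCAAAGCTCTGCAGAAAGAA

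POU5F1 had 372 and 352 counts in the hPSC libraries, 61 and 69 in endoderm, 5 and 16 in ectoderm, and 1 and 5 in mesoderm. In CPM this was 671 ± 63.7 (SD, n = 2) in hPSC, 111 ± 9.57 in endoderm, 10.4 ± 8.70 in ectoderm and 5.90 ± 5.69 in mesoderm. The layers did not overlap hPSC, and endoderm stood apart from both other layers. Endoderm kept 16.5% of the hPSC level, ectoderm 1.55% and mesoderm 0.879%. The fitted log2 fold change against hPSC was -2.26 ± 0.40 (SE) in endoderm, -6.46 ± 0.50 in ectoderm and -7.04 ± 0.57 in mesoderm, with edgeR adjusted p of 0.000662, 2.55e-07 and 3.67e-07. The ectoderm value was -5.61 without ectoderm repeat 1 and -7.49 without repeat 2, and the mesoderm value -6.21 without mesoderm repeat 1 and -8.49 without repeat 2. Ectoderm was below endoderm (log2 fold change -4.21, edgeR adjusted p = 5.12e-06), and endoderm exceeded mesoderm by 4.78 on that scale (1.91e-05). Without ectoderm repeat 1 or 2 the former was -3.42 or -5.30, and without mesoderm repeat 1 or 2 the latter was 4.03 or 6.31, all past the threshold. Ectoderm and mesoderm, the lowest neighbours in the order, did not differ beyond their spread (log2 fold change 0.58 ± 0.76, edgeR adjusted p = 0.587).

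The related POU5F1 loci had almost no reads. Of 16 retrocopies and neighbours listed for the 6 genes, 3 had any count. POU5F1B, an intronless copy of POU5F1, had 4 counts in all 8 libraries together, 2 of them in hPSC repeat 2. SOX2-OT, which overlaps SOX2, had 21 counts over 6 transcripts, of which ectoderm held 10 and 6.

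NANOG had 2 transcripts with reads. The leading one, ENST00000229307.9, spans chr12:7789402-7799146 on the plus strand with 4 exons and 5182 bases, and was assembled in hPSC and in endoderm. The second, ENST00000541267.5, starts at chr12:7787794, upstream of the leading one, has 6 exons and 2275 bases, and was assembled in hPSC alone. Its exon 3 opens inside the NANOG start codon exon and leaves out the first 5 coding bases, so the usual start codon is missing. The next ATG in the same frame lies further on, and whether it is used was not tested. The usual start codon and that next ATG are in capitals below, in the first coding bases of the leading transcript (chr12:7789615-7789689), to show the coding bases between them.
NANOG start of the coding sequence: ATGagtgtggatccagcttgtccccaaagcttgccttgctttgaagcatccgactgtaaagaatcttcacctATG

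The region just upstream of the leading NANOG start holds a well known element at which POU5F1 and SOX2 bind side by side. It is shown from chr12:7789152-7789395 (RefSeq, GRCh38.p14), ending before the first exon of the leading transcript and lying inside an intron of the upstream form, because it holds the letters of that element. The capitals mark an octamer followed by a SOX site, TTTGCATNACAATG.
NANOG promoter: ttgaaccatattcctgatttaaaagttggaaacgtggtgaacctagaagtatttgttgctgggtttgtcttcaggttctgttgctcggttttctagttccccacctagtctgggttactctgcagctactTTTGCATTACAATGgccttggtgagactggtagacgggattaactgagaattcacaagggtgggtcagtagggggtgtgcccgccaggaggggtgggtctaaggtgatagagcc

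The composite was searched on both strands of 35116 promoter windows of 300 bases, and 3 windows (0.00854%) held it. In the NANOG window it begins 120 bases before the RefSeq start. The window of SOX2 did not hold it. The octamer TTTGCAT alone, which is part of the composite, was in 1567 windows (4.46%), and the SOX site ACAATG alone in 3786 (10.8%). Windows for DPPA4 and ZFP42 held neither. A second SOX site, ACAAAG, was in 5642 windows (16.1%), those of SOX2 and ZFP42 among them. No window was at hand for POU5F1 and PRDM14. A match describes letters, not binding.

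NANOG levels in endoderm overlapped those in hPSC, while each ectoderm and mesoderm library held at most 3 counts. It had 79 and 129 counts in hPSC, 92 and 65 in endoderm, 3 and 0 in ectoderm, and 0 and 1 in mesoderm. This was 191 ± 54.7 CPM (SD, n = 2) in hPSC and 134 ± 32.7 in endoderm, and these groups overlapped. The log2 fold change of endoderm against hPSC was -0.22 ± 0.38 (SE; edgeR adjusted p = 0.722), and it took a positive sign when either repeat 2 of hPSC or repeat 2 of endoderm was left out (0.31 and 0.08). Ectoderm and mesoderm lay below both. The ratio of pooled CPM of hPSC to ectoderm was 138 (95% exact interval 46.5 to 673) and of hPSC to mesoderm 199 (35.3 to 7900), where the intervals cover counting error only. Both falls passed the edgeR test, with log2 fold changes of -7.35 ± 0.62 (adjusted p = 5.42e-07) and -7.63 ± 0.75 (2.24e-06). The ectoderm value was -6.39 without ectoderm repeat 2, which had no count, and the mesoderm value -6.64 without mesoderm repeat 1, which had none. Without the other library of the layer, the fits over 0 counts gave -9.90 and -10.2, which are no bounds, and all 4 kept their call. Ectoderm against mesoderm gave 0.28 ± 1.54 (edgeR adjusted p = 0.912).

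NANOG in endoderm was at 70.2% of its hPSC mean.

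The leading NANOG transcript carried 72 of 79 and 118 of 129 counts in hPSC (91.1% and 91.5%) and 89 of 92 and 63 of 65 in endoderm (96.7% and 96.9%). The upstream form therefore took 8.65% of the hPSC counts (18 of 208, exact 95% interval 5.21 to 13.3) and 3.18% in endoderm (5 of 157, 1.04 to 7.28). These intervals overlap. Outside these groups it had a single count, in ectoderm repeat 1. The upstream form was too low for the transcript test and, under the filter on low counts, for the test of transcript choice. With no filter that test called no change for NANOG in endoderm (diffSpliceDGE adjusted p = 0.754). Ectoderm (0.806) and mesoderm (0.971) held only 3 and 1 NANOG counts, too few for the test to decide whether choice changed.

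NANOGP8 is an intronless retrocopy of NANOG on chromosome 15, at chr15:35083200-35085292. Its counts were 23 and 47 in hPSC, 26 and 15 in endoderm, 1 and 2 in ectoderm, and 0 in both mesoderm libraries. The libraries in which NANOGP8 was high were those in which NANOG was high. For every 100 NANOG counts there were 29.1 and 36.4 NANOGP8 counts in hPSC and 28.3 and 23.1 in endoderm. Its log2 fold change was -5.77 ± 0.64 in ectoderm (edgeR adjusted p = 1.40e-05) and -0.58 ± 0.43 in endoderm (0.357). In GENCODE 29 the coding bases of the pair differ at 5 of 915 positions (99.5% identity). The first such base is in capitals in this coding stretch, from chr12:7789615-7789674 for NANOG and chr15:35085051-35085110, minus strand, for the copy, to show how alike reads of the pair are.
NANOG coding stretch: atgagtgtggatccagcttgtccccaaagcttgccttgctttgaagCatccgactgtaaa
NANOGP8 same stretch: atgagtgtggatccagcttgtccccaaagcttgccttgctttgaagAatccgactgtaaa

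How reads that fit both copies were assigned is not given in the sources used here, so the split of counts between NANOG and NANOGP8 is uncertain.

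SOX2 has no introns, and 1 transcript, ENST00000325404.3 at chr3:181711858-181714436 on the plus strand, carried every count. It was assembled in hPSC and ectoderm. The upstream region chr3:181711675-181711857 (RefSeq, GRCh38.p14) is shown because its letters include an octamer on the minus strand, in capitals, 1 of the 1567 windows counted above.
SOX2 promoter: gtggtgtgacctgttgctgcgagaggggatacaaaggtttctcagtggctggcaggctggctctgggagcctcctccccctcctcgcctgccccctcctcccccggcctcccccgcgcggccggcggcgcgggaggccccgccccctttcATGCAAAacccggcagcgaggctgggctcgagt

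SOX2 counts were 180 and 129 in ectoderm, 71 and 5 in hPSC, and 0 in all 4 endoderm and mesoderm libraries. A count of 0 allows up to 5.12 CPM in each endoderm library and 5.65 and 5.95 CPM in the mesoderm libraries, by counting error alone. In CPM ectoderm held 152 and 133, and hPSC 137 and 8.90. Ectoderm repeat 2 lay below hPSC repeat 1, so these groups overlapped. The log2 fold change of ectoderm against hPSC was 0.65 ± 0.58 (SE; edgeR adjusted p = 0.365). The value rested on which hPSC library was used. Without hPSC repeat 1 it was 3.41 (adjusted p = 5.15e-08), and without hPSC repeat 2 it was -0.13 (0.713).

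Against the layers without SOX2 counts the folds are lower bounds, set by a floor of 3 counts in each library. SOX2 was at least 14.2-fold higher in hPSC than in endoderm and at least 12.6-fold higher than in mesoderm. These bounds rest on hPSC repeat 1. With it alone they were 26.7 and 23.6, and with repeat 2 alone 1.74 and 1.53. Ectoderm was at least 27.9-fold above endoderm and at least 24.6-fold above mesoderm. All 4 of these passed the edgeR test (adjusted p = 0.00338, 0.00149, 0.000273 and 0.000407). The call for endoderm against hPSC was lost when either endoderm library was left out, with adjusted p of 0.0663 and 0.0623.

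**Figure D2:**
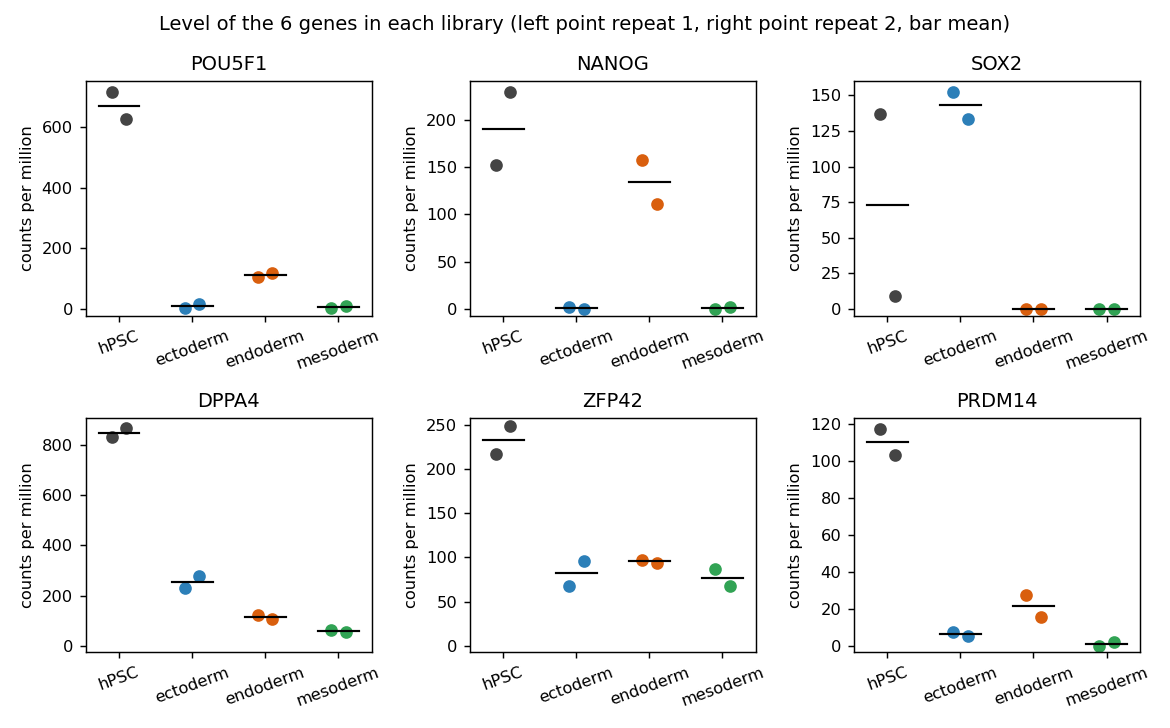
Level of the 6 genes in each library, in CPM of the library total on a linear axis; points are repeats 1 (left) and 2 (right), and bars are means. NANOG is high in hPSC and endoderm, SOX2 in ectoderm and in hPSC repeat 1, and the other 4 genes are highest in hPSC.

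DPPA4 was carried by ENST00000335658.7, at chr3:109326144-109337546 on the minus strand, with 7 exons and 2788 bases, assembled in all 4 groups. Its share of the gene's counts lay between 93.7% and 99.6% in the 8 libraries, with a median of 97.4%. The other transcript, ENST00000489281.1, has 2 exons and 680 bases, was assembled in ectoderm alone, and reads into the second intron in place of splicing. It holds the start codon and 178 of 912 coding bases. The point at which they part is shown (chr3:109332002-109333899 and chr3:109333840-109333899), with capitals for the bases after the shared exon.
DPPA4 leading transcript: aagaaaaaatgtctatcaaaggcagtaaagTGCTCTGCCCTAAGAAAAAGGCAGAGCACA
DPPA4 intron form: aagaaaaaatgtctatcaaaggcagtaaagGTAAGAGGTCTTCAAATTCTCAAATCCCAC

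The intron form had 2 and 12 counts in hPSC, 2 and 4 in endoderm, 1 and 3 in ectoderm, and 1 in each mesoderm library. Of the hPSC counts it made up 1.52% (14 of 920, exact 95% interval 0.834 to 2.54), and of the endoderm counts 4.48% (6 of 134, 1.66 to 9.49). It was too low to be tested.

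DPPA4 fell in each layer and kept different amounts. From 432 and 488 counts in hPSC it went to 273 and 268 in ectoderm, while endoderm held 71 and 63 and mesoderm 33 and 27. The level was 850.1 ± 25.7 CPM (SD, n = 2) in hPSC, and 254 ± 32.5 in ectoderm against 114 ± 9.74 in endoderm and 57.9 ± 6.04 in mesoderm. No group overlapped another. Ectoderm kept 29.9% of the hPSC mean, endoderm 13.5% and mesoderm 6.81%. The log2 fold changes against hPSC were -2.18 ± 0.29 (SE), -2.57 ± 0.31 and -4.12 ± 0.34, with edgeR adjusted p of 4.84e-05, 2.54e-05 and 3.76e-07. Ectoderm was also above mesoderm by 1.94 and endoderm by 1.55 on the log2 scale (edgeR adjusted p = 0.000305 and 0.00161). Ectoderm against endoderm did not pass at 0.39 ± 0.30 (adjusted p = 0.264). With library totals as the scale it did, at 1.21 (adjusted p = 0.00104).

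That change of scale matters for the ectoderm values. The fit balances the libraries by TMM, which sets the typical gene near no change. The median log2 fold change of all 10847 genes tested was then -0.01 in ectoderm, -0.13 in endoderm and 0.01 in mesoderm against hPSC. With library totals alone these medians were 0.43, -0.48 and 0.25. Between ectoderm and endoderm the median moved from 0.19 to 1.00.

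ZFP42 had the most transcripts of the 6 genes, and in each layer the smallest fall of those that passed the test. Its 6 transcripts start together at chr4:187995771 on the plus strand. ENST00000509524.5 has 3 exons and 2480 bases, and ENST00000326866.5 adds an untranslated exon of 166 bases, chr4:187999108-187999273. Both were assembled in all 4 groups. The 4 others match no reference transcript, and each was assembled in mesoderm alone. One (hEDT_00071886) keeps the 335 bases between the 166-base exon and the next. Another pair (hEDT_00071884 and hEDT_00071885) lack chr4:188004238-188004530, 293 bases of the last exon that begin with GC and end with AG, where the letters AGGC occur at both edges. The last one (hEDT_00071887) lacks chr4:188003979-188004664, 686 bases that begin with GT and end with CT, where the letters TGTGTTC occur at both edges. GENCODE 29 has neither gap. All 930 coding bases lie in the last exon upstream of these gaps, so each of the 6 transcripts holds the whole coding sequence.

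**Figure D3:**
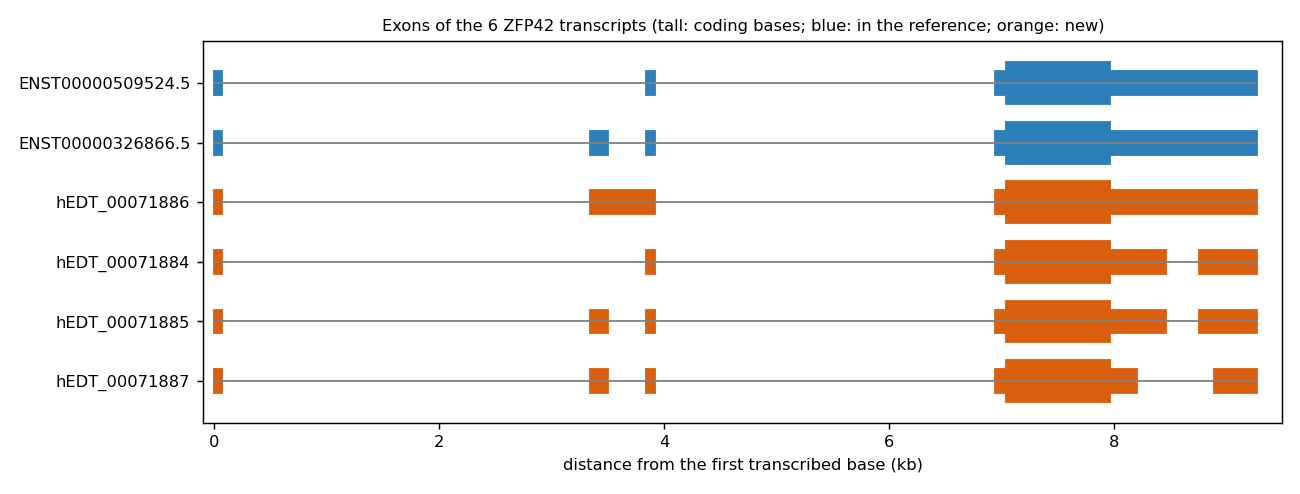
Exons of the 6 ZFP42 transcripts by distance from the first transcribed base, in kb; tall boxes are coding bases, blue marks transcripts that match the reference and orange the 4 new ones. The transcripts differ in the second exon and in the untranslated end of the last exon, and share the coding bases.

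ZFP42 counts were 113 and 140 in hPSC, 57 and 55 in endoderm, 80 and 93 in ectoderm, and 46 and 34 in mesoderm. The mean level of 233 ± 22.3 CPM (SD, n = 2) in hPSC stood above 95.6 ± 2.49 in endoderm, 81.9 ± 20.1 in ectoderm and 77.0 ± 13.5 in mesoderm. No layer overlapped hPSC. The ranges of ectoderm and mesoderm overlapped each other, and ectoderm also reached into the range of endoderm. Ectoderm kept 35.1%, endoderm 41.0% and mesoderm 33.0% of the hPSC mean. Fitted against hPSC, ectoderm gave a log2 fold change of -1.95 ± 0.32 (SE; edgeR adjusted p = 0.000207), mesoderm -1.85 ± 0.33 (0.000593) and endoderm -0.97 ± 0.32 (0.0354).

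The endoderm call was near the threshold. It was lost with DESeq2 (adjusted p = 0.101), without the filter on low counts (0.0638), and when any 1 library other than hPSC repeat 1 was left out (0.0618 to 0.184). Ectoderm was below endoderm (-0.99, edgeR adjusted p = 0.0157), and endoderm above mesoderm by 0.88 (0.0450). With library totals as the scale these log2 fold changes were -0.17 (adjusted p = 0.618) and 0.27 (0.455), and neither passed. Leaving out ectoderm repeat 1 or either endoderm library also ended the former call (0.0706 to 0.167), and 8 further settings ended the latter, among them the absence of any endoderm or mesoderm library (0.078 to 0.223).

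The new ZFP42 transcripts took 41.3% and 44.1% of the gene's counts in mesoderm and from 10.0% to 17.7% in the other 6 libraries. The 4 new transcripts had 20 of 113 and 14 of 140 counts in hPSC, 7 of 57 and 8 of 55 in endoderm, 11 of 80 and 13 of 93 in ectoderm, and 19 of 46 and 15 of 34 in mesoderm. Their share was 13.8% ± 5.44 (SD, n = 2) in hPSC, 13.4% ± 1.60 in endoderm, 13.9% ± 0.162 in ectoderm and 42.7% ± 1.99 in mesoderm. The mesoderm libraries stood apart from the 6 others. With reads fitted to the mesoderm assembly alone the new transcripts had 17 of 46 and 15 of 34 counts. The 2 reference-matching transcripts together fell from 202 ± 31.9 CPM in hPSC to 44.3 ± 9.28 in mesoderm (log2 fold change -2.34 ± 0.37, edgeR adjusted p = 0.00022). The new ones were at 31.7 ± 9.62 CPM in hPSC and 32.8 ± 4.25 in mesoderm.

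Single new transcripts were sparse. In mesoderm hEDT_00071884 had 5 and 8 counts, hEDT_00071885 had 5 and 3, hEDT_00071886 had 4 and 4, and hEDT_00071887 had 5 and 0. In hPSC they had 7 and 4, 1 and 4, 12 and 5, and 0 and 1. None passed the filter on low counts, so the test of transcript choice compared only the 2 reference-matching forms (mesoderm against hPSC, diffSpliceDGE adjusted p = 0.927). With no filter it took in all 6, and ZFP42 was then called in mesoderm (diffSpliceDGE adjusted p = 0.0381) and not in ectoderm (0.770) or endoderm (0.992). Since these models exist only because the mesoderm reads were assembled, their counts elsewhere are reads fitted to models made in mesoderm. The call without a filter takes in these models, so it cannot decide whether transcript choice changed.

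Among the 2 reference-matching forms, the one with the 166-base exon took 34.4% and 28.6% of counts in hPSC, 34.0% and 38.3% in endoderm, 15.9% and 25.0% in ectoderm, and 25.9% and 31.6% in mesoderm. Ectoderm lay lowest, and no layer passed the test of transcript choice against hPSC. Both forms fell in ectoderm, with log2 fold changes of -1.57 ± 0.34 (SE; edgeR adjusted p = 0.00171) for ENST00000509524.5 and -2.32 ± 0.42 (0.000518) for ENST00000326866.5. Without ectoderm repeat 1 the former did not pass (adjusted p = 0.0552).

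**Figure D4:**
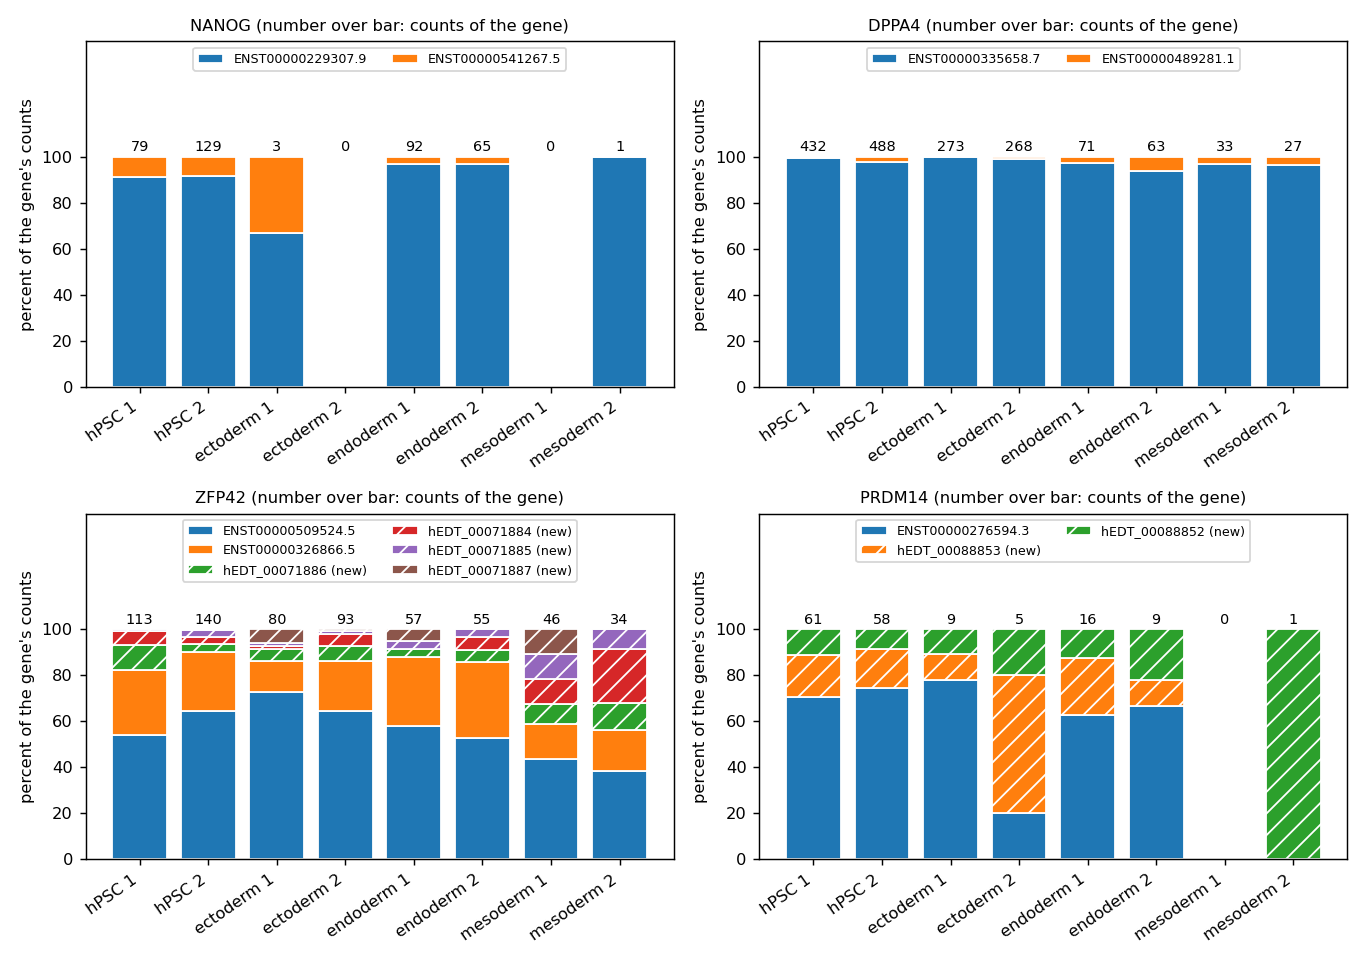
Percent of a gene's counts carried by each of its transcripts in every library for NANOG, DPPA4, ZFP42 and PRDM14; the number over a bar is the gene's count, and hatching marks transcripts that match no reference. New transcripts hold 41.3% and 44.1% of the ZFP42 counts in mesoderm and from 10.0% to 17.7% in the other libraries.

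PRDM14 lies at chr8:70049647-70071282 on the minus strand. Its leading transcript ENST00000276594.3 has 8 exons and 4303 bases, and its end lies 2004 bases beyond the GENCODE 29 model. The assemblies of hPSC and of endoderm end this form at chr8:70051651, that of ectoderm at the far end. The new transcripts, both assembled in endoderm alone, change the region of the start codon. One (hEDT_00088853) keeps the 628-base intron after the exon that holds the start codon. The other (hEDT_00088852) skips that exon of 724 bases, so it holds 1013 of 1713 coding bases (59.1%) and lacks the annotated start codon.

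PRDM14 had 61 and 58 counts in hPSC, 16 and 9 in endoderm, 9 and 5 in ectoderm, and 0 and 1 in mesoderm. In CPM this was 110 ± 10.1 (SD, n = 2) in hPSC, 21.3 ± 8.46 in endoderm, 6.40 ± 1.73 in ectoderm and 0.992 ± 1.40 in mesoderm, with no overlap between groups. Endoderm kept 19.3% of the hPSC mean and ectoderm 5.80%. The fitted difference from hPSC was -2.03 ± 0.38 on the log2 scale in endoderm (SE; edgeR adjusted p = 0.00119) and -4.46 ± 0.41 in ectoderm (1.44e-06). For mesoderm, with a single count, the ratio of pooled CPM of hPSC to mesoderm was 114 (95% exact interval 20.1 to 4536), and the edgeR adjusted p was 1.74e-06. Ectoderm was below endoderm (log2 fold change -2.43, edgeR adjusted p = 0.000696). Ectoderm was not called above mesoderm (2.34 ± 1.04, adjusted p = 0.0901).

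The leading PRDM14 transcript held 43 of 61 and 43 of 58 counts in hPSC (70.5% and 74.1%), 7 of 9 and 1 of 5 in ectoderm, and 10 of 16 and 6 of 9 in endoderm. The intron form held 11 and 10 counts in hPSC, and the form without the start codon exon held 7 and 5. Together the new forms took 27.7% of the hPSC counts (33 of 119, exact 95% interval 19.9 to 36.7) and 36.0% of the endoderm counts (9 of 25, 18.0 to 57.5). The intervals overlap. The test of transcript choice between the leading and the intron form passed neither in ectoderm (diffSpliceDGE adjusted p = 0.690) nor in endoderm (0.898). In mesoderm both forms had 0 counts, so the test there (0.811) had no choice to compare. These shares rest on the assembly to which reads were fitted. On the assembly of endoderm alone the leading form had 5 of 17 and 1 of 15 counts, 29.4% and 6.7% in place of 62.5% and 66.7%.

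Read side by side against hPSC, 5 of the 6 genes fell in ectoderm, all but SOX2, where 24.8% of all 10847 genes tested were lower by the same edgeR test. In endoderm 5 of 6 fell, all but NANOG, beside 13.7% of all genes. Without either endoderm library 3 did, POU5F1, DPPA4 and PRDM14. In mesoderm 6 of 6 fell, beside 18.2%. The median log2 fold change of the 6 genes was -3.32 in ectoderm, -2.14 in endoderm and -6.92 in mesoderm, or -5.46 in mesoderm with SOX2 set at its lower bound. The 3 comparisons share their hPSC libraries.

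**Figure D5:**
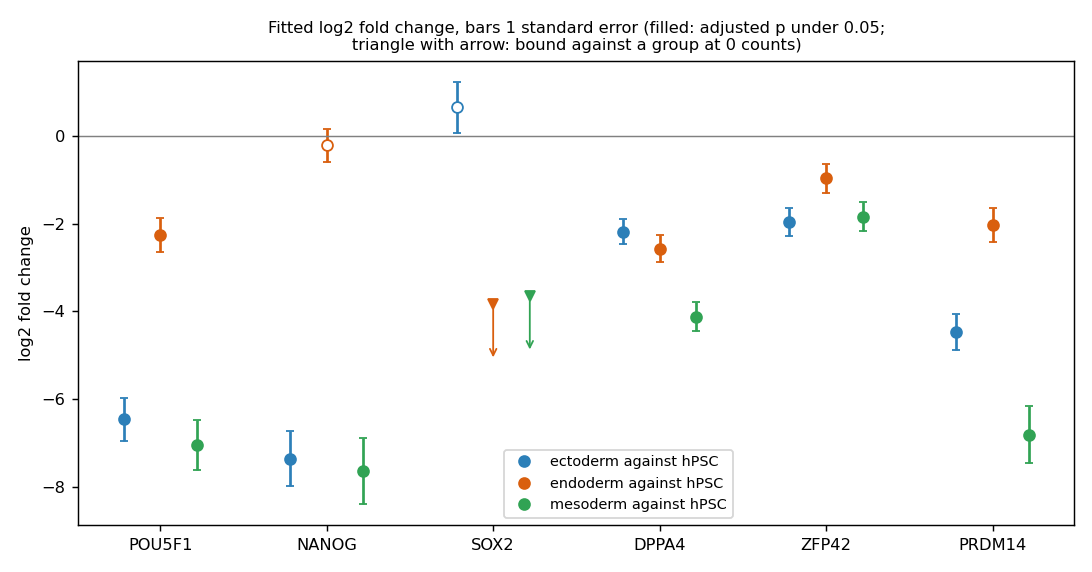
Fitted log2 fold change of each gene in each layer against hPSC, with bars of 1 standard error; filled points passed an edgeR adjusted p of 0.05, open points did not, and triangles with arrows are bounds for SOX2 where a layer had 0 counts. NANOG in endoderm (-0.22) and SOX2 in ectoderm (0.65) are the open points.

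Between layers, ectoderm was below endoderm for POU5F1, NANOG, ZFP42 and PRDM14 (29.9% of all genes were lower) and above it for SOX2 (33.1% of all genes were higher). Ectoderm was above mesoderm for SOX2 and DPPA4 (18.2% of all genes were higher) and below it for none. Endoderm was above mesoderm for POU5F1, NANOG, DPPA4, ZFP42 and PRDM14 (23.2% of all genes were higher). SOX2 was at 0 in both and has no fold there.

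At the level of single transcripts, 8 of the 15 had enough counts for the test over 12440 transcripts. Of these, 7 fell in ectoderm, 5 in endoderm and 8 in mesoderm, beside 22.1%, 13.6% and 16.3% of all transcripts tested. The 7 others, which are the upstream NANOG form, the DPPA4 intron form, the 4 new ZFP42 forms and the PRDM14 form without the start codon exon, were not tested. In endoderm the forms that did not pass were the NANOG transcript (-0.18 ± 0.38 (SE), edgeR adjusted p = 0.775), ENST00000326866.5 of ZFP42 (-0.80 ± 0.42, 0.172) and the PRDM14 intron form (-1.87 ± 0.68, 0.0531). For transcript choice, 2 genes could be tested under the filter on low counts, ZFP42 and PRDM14, and 0 were called by diffSpliceDGE in any layer, the smallest unadjusted p being 0.155. The PRDM14 test in mesoderm compared forms with 0 counts there, so it could not call a change. With no filter NANOG and DPPA4 were tested too and not called (for DPPA4 adjusted p = 0.775 in endoderm, 0.772 in ectoderm and 0.947 in mesoderm), and only ZFP42 in mesoderm was. NANOG had only 3 counts in ectoderm and 1 in mesoderm, so its tests there cannot decide. Among 2629 genes with at least 2 tested transcripts, 5.63% were called in ectoderm, 5.06% in endoderm and 7% in mesoderm.

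Other genes of the pluripotency network were read from a list of 42, of which 39 had reads and 28 could be tested. In ectoderm 16 of the 28 fell (57.1%) and 1 rose (3.57%), beside 24.8% and 23.8% of all genes tested. In endoderm 12 fell (42.9%) and 8 rose (28.6%), beside 13.7% and 13.4%. Among the 8, LEFTY1, LEFTY2, NODAL and GDF3 passed the filter on low counts only through their endoderm counts. Their being tested at all is therefore not independent of their rise. In mesoderm 19 fell (67.9%) and 2 rose (7.14%), beside 18.2% and 16.9%. The falls in ectoderm and mesoderm include LEFTY2 (2 and 2 counts in hPSC) and GDF3 (5 and 4), both at 0 there. By the floor of 3 counts LEFTY2 was at least 1.31-fold higher in hPSC than in ectoderm. For mesoderm it had no bound above equality, so that fall is not established. GDF3 was at least 2.97-fold higher in hPSC than in ectoderm and 1.44-fold than in mesoderm. The median log2 fold change of the list was -1.47, -0.48 and -3.66, against -0.01, -0.13 and 0.01 for all genes. With genes at 0 set to their bound it was -1.24, -0.48 and -2.60.

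In ectoderm the lowest fitted values were those of TDGF1, the NODAL coreceptor, with 524 and 626 counts in hPSC against 2 and 1, of NODAL itself with 3 and 15 against 0 and 0, of GDF3, a related ligand, with 5 and 4 against 0 and 0, and of FOXH1, a cofactor of SMAD proteins, with 55 and 47 against 5 and 5. For genes at 0 the fitted value is no bound and their rank is not established. NODAL was at least 5.75-fold and GDF3 at least 2.97-fold higher in hPSC. LIN28B, a let-7 binding protein, was the 1 that rose, from 17 and 18 counts to 234 and 235 (log2 fold change 2.33 ± 0.32 (SE), edgeR adjusted p = 4.90e-05).

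In endoderm the highest values were those of the NODAL group, which entered the test through their endoderm counts. LEFTY1, an inhibitor of NODAL, went from 0 and 1 counts in hPSC to 1198 and 1034. LEFTY2, of the same family, had 2 and 2 against 383 and 470. NODAL had 3 and 15 against 130 and 194 (log2 fold change 4.36, edgeR adjusted p = 3.58e-05), and GDF3 had 5 and 4 against 25 and 20 (2.52, 0.00226). The lowest fitted values were those of SOX3 (46 and 0 against 0 and 0, at least 8.65-fold higher in hPSC), POLR3G, a subunit of RNA polymerase III (16 and 20 against 0 and 0, at least 6.48-fold), USP44 (96 and 53 against 2 and 1) and the polycomb gene PHC1 (571 and 832 against 44 and 40). The ranks of SOX3 and POLR3G are not established either, and all SOX3 counts in hPSC were in 1 library. TDGF1 kept 452 and 351 counts in endoderm.

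In mesoderm the lowest values included those of TDGF1 (0 and 2 counts), VRTN (287 and 238 in hPSC against 3 and 1) and USP44 (1 and 0). The 2 that rose were both genes of epithelial cells, CDH1 (360 and 286 against 818 and 862, log2 fold change 1.22 ± 0.29 (SE), edgeR adjusted p = 0.00442) and EPCAM (82 and 25 against 132 and 193, 1.47 ± 0.46, 0.0223). CDH1 encodes E-cadherin, which holds epithelial cells together.

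The genes whose levels were most like those of each member over the 8 libraries were named by Pearson's r of log2(CPM + 1) among 10273 tested genes with a symbol. These are descriptions of 8 points in 4 groups that share their libraries. Pearson's r does not compare the size of the changes. EEF1B2, for example, lay between 72.4 and 132 CPM, and NANOG between 0 and 230. NANOG was followed most closely by PSPH (r = 0.994), EEF1B2 (0.994) and TDGF1 (0.992). TDGF1 had 1009 and 1114 CPM in hPSC, 772 and 599 in endoderm, and at most 3.97 in ectoderm and mesoderm. DPPA4 was followed by LINC00678 (0.994), DNMT3B, a DNA methyltransferase (0.991), and PRPS1 (0.991). DNMT3B was at 734 and 648 CPM in hPSC and at 204 and 195 in ectoderm, with 88.8 and 73.4 for endoderm and 60.3 and 51.6 for mesoderm, which is the order of DPPA4.

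For SOX2 the closest were CLCN2 (0.986), SCUBE1 (0.980) and SPRY1 (0.975). POU5F1 was closest to MRPS12 (0.991), RBM14 (0.988) and DANCR (0.979), ZFP42 to DCTPP1 (0.991), GNPDA1 (0.983) and RIPOR2 (0.971), and PRDM14 to UQCRH (0.989), KCNH6 (0.981) and TUT1 (0.981). Among the members themselves, r over the 8 libraries was highest between POU5F1 and PRDM14 (0.942) and between POU5F1 and NANOG (0.912). It was lowest between NANOG and SOX2 (-0.12).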

How the data were processed

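Whole raw counts per assembled transcript, not normalized, were deposited by the authors for all groups combined and for each group's own assembly. The 2 deposited endoderm columns are recorded under the unit expected counts, but hold whole counts like the others, so no rounding was needed. The authors' CPM tables, whose totals differ from the sums of the listed counts by 15 to 59 reads, served to check the counts. The submitters' processing notes name minimap2, StringTie and the build GRCh38 (hg38), and the file headers name StringTie. Versions, the counting tool, use of strand and the handling of reads shared by similar copies are not given in the sources used here.

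Gene counts are sums over the transcripts the assembly names for a gene. The counts went into edgeR 4.0.16 (R 4.3.3): TMM, filterByExpr with a minimum count of 10, 1 quasi-likelihood fit over 8 libraries and 4 groups, two-sided, and Benjamini-Hochberg adjustment over all genes or transcripts at 0.05. Transcript choice was tested with diffSpliceDGE. The SE is the log2 fold change over the square root of F. Exact intervals are Clopper-Pearson or conditional binomial at 95% and cover counting error only, as does the floor of 3 counts. Alternatives were DESeq2 1.42.0, other scalings, filters and row choices, a term for the repeat number, and each library left out. The code was tested on simulated data. Structures and coding bases were compared with GENCODE 29 (GRCh38), and NANOG was aligned to its copy with edlib. Named were the 6 genes, their transcripts with at least 5 counts over the 8 libraries, related loci with a count, the 4 highest and 4 lowest called genes of the network list per layer (1 is not reported here), and the 3 genes most alike to each member. The members and lists were chosen with earlier results of these data known.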

Additional observations from a re-analysis of the deposited data

How the results depend on the processing

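With 2 libraries a group and few reads per gene, values under about 10 counts are imprecise. Leaving out a library leaves 1 in its group, which is then assumed to vary like the other groups. Of 560 recomputed gene log2 fold changes, 522 kept their direction and side of the threshold, 24 lost the call and 2 gained it, and of 652 for transcripts 583 did, with 46 lost and 12 gained. The cause of these changes was not tested. Where members are called lower in endoderm than in hPSC, leaving out 1 library gave 3 to 5 genes (5 with all) and 3 to 5 transcripts (5 with all). Higher in endoderm than in mesoderm were 7 member transcripts with all libraries, beside 21.3% of all transcripts tested. Library totals and DESeq2 each gave 4. The choice of transcripts, called for 0 members, was called for 1 (ZFP42, mesoderm) with no filter on low counts, which takes in more transcripts.

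Values whose sign turned all belong to differences that were not called. Against hPSC, leaving out 1 library at a time gave SOX2 in ectoderm a log2 fold change of -0.13 (without hPSC repeat 2) to 3.41 (without hPSC repeat 1), and its transcript -0.031 to 3.62. NANOG in endoderm ranged from -0.59 (without hPSC repeat 1) to 0.31 (without hPSC repeat 2), and its leading transcript from -0.56 to 0.28. In ectoderm against mesoderm the range was -0.52 to 2.17 for POU5F1 (its transcript -0.46 to 2.23), -2.39 to 2.95 for NANOG (its leading transcript -2.43 to 2.52), -0.27 to 0.20 for ZFP42, and -0.44 to 0.69 for its ENST00000326866.5 form. There the leading NANOG transcript took 0.017 with library totals and 0.11 with no filter. ZFP42 took 0.11 with library totals, 0.075 with no filter and 0.55 over reference-matching transcripts only. In ectoderm against endoderm ENST00000509524.5 took 0.26 with library totals.

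On the assembly of each group alone, which holds fewer transcripts, the leading share became 100% for NANOG in endoderm, DPPA4 in hPSC, endoderm and mesoderm, and PRDM14 in hPSC and ectoderm. It became 76.6% for ZFP42 in ectoderm repeat 2, and 29.4% and 6.7% for PRDM14 in endoderm.

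To look for a pairing by repeat number, deviations of same-numbered libraries were compared between groups, and they correlated at r = -0.03 to 0.13. With so few libraries in a group, these values cannot decide whether same-numbered libraries share more than a number. With a term for the pairing (replicate block), the genes called were 5 in ectoderm, 5 in endoderm and 6 in mesoderm, as without it. In endoderm against mesoderm 4 genes and 6 transcripts were called in place of 5 and 7, as ZFP42 (0.87, edgeR adjusted p = 0.0557) and the PRDM14 intron form (4.92, 0.0715) missed the threshold, and no other call of a member changed.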
